A study of Homo sapiens with 6 samples.

Results

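Chromatin accessibility was examined at 10 interferon-stimulated genes in HLF, a cell line derived from a human liver cancer, after treatment with an inhibitor of the menin-MLL1 interaction. The genes were IFIT1, IFIT2, IFIT3, IFIT5, ISG15, MX1, MX2, OAS1, OAS2 and OAS3. Their sites were all peak regions of the 6 libraries within 1 kb of an annotated start site, in the gene body or within 10 kb of it (GENCODE release 44, hg38), and this rule found 58 sites of 166021 in all. The chosen question was whether sites of the interferon type became less accessible with the inhibitor. Cells received 5 μM SNDX-5613, a small molecule that keeps menin from binding MLL1, or DMSO as the vehicle, with 3 ATAC-seq libraries per group in the same labelled batch. HLF was the only line, so the libraries are repeats of a single cell line and p-values measure the spread between these libraries. The labels state 24 h of treatment and the study's methods describe 4 days for this assay, so the duration is uncertain.

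Type I and type III interferons signal through cell surface receptors and the kinases JAK1 and TYK2 to transcription factors, STAT2 and IRF9 among them, that bind the interferon-stimulated response element in the promoters of antiviral genes. The IFIT proteins bind viral RNA, the OAS enzymes sense viral RNA and make the oligoadenylates that switch on RNase L, the MX proteins are GTPases that trap viral components, and ISG15 is a ubiquitin-like protein that is attached to other proteins.

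The response element was searched on both strands as a GAAA, any 2 bases and another GAAA, 10 bases in all, and matches may overlap. Over the 250 bases before 35116 RefSeq start sites (GRCh38.p14), 3.02% held at least 1 match. The RefSeq table held 7 of the 10 genes and left out IFIT2, MX2 and OAS2. Of the 10 windows of these 7 genes, the windows of ISG15, IFIT1, IFIT5 and OAS3 and both windows of IFIT3 held 2 matches each, 1 of the 3 MX1 windows held 1 match, and the OAS1 window and the other MX1 windows held none. The stretches below are shown because the matches lie inside the accessible sites described here, and capitals mark the match, which reads TTTC, 2 bases and TTTC where it lies on the minus strand. Where an annotated exon begins, the stretch stops, and where an exon covers the match only 30 bases are given. For MX2, whose site had the largest shift without overlap, the 150 bases before the start site inside that site are shown, and they held no match.
ISG15 (GRCh38.p14, chr1:1013247-1013496, plus strand): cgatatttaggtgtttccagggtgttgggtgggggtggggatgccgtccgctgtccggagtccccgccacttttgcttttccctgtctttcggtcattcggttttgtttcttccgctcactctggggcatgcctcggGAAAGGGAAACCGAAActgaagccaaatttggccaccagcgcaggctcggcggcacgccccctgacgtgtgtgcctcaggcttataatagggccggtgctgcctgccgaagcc
IFIT1 (GRCh38.p14, chr10:89392373-89392545, plus strand): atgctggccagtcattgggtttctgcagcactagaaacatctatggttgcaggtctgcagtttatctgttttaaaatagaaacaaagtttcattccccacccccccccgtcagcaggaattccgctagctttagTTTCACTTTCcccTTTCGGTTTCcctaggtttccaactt
IFIT3 (GRCh38.p14, chr10:89327747-89327940, plus strand): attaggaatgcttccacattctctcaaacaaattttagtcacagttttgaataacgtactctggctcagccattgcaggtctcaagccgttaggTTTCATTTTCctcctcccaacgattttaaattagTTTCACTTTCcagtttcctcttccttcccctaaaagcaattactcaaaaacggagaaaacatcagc
IFIT5 (GRCh38.p14, chr10:89414513-89414542, plus strand): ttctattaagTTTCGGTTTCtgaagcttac
IFIT5 (GRCh38.p14, chr10:89414539-89414568, plus strand): ttacgtttagTTTCGATTTCttaagtttca
OAS3 (GRCh38.p14, chr12:112938321-112938350, plus strand): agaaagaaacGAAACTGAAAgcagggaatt
OAS3 (GRCh38.p14, chr12:112938452-112938481, plus strand): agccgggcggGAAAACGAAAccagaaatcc
MX2 (hg38, chr21:41369935-41370084, plus strand): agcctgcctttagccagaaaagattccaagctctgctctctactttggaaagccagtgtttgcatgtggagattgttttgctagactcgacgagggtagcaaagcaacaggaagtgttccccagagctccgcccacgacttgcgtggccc

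Depth was read from the peak lists, because counts of reads were not used here. The genome-wide background pileup, the usual number of fragments that cover a base, was 0.997 to 1.51 in 5 libraries and 0.211 in SNDX-5613 replicate 3. In that library the lowest pileup called as a peak was 14.2 times its background, against 4.60 to 6.02 times in the other libraries, so weak sites could not be called in it. A level below is the pileup at the strongest summit of a site divided by the background of its library. A percentile is the rank of the site's highest -log10 p among the 33405 sites that every library called. A site is among these only if SNDX-5613 replicate 3 called it. A site with levels below 14.2 with DMSO could therefore be called higher but hardly lower. Of the cell type markers, all 4 mesenchymal-type genes (VIM, ZEB1, CDH2 and FN1) had a start-site peak in all 6 libraries. By contrast, 5 of 8 hepatocyte markers, among them ALB, APOA1 and HNF4A, and the leukocyte markers PTPRC, CD3E, LYZ and ITGAM had none in any library. Of the endothelial markers, KDR had a start-site peak in all 6 libraries and CDH5 in 1, while PECAM1 and VWF had none. The leukocyte marker CD14 had one in 5 libraries.

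Accessible sites were found at all 10 genes, and their number did not separate the groups. The 58 sites comprised 22 within 1 kb of a start site, 18 elsewhere in a gene body and 18 in the flanks, and sites shared by neighbouring genes were counted once. Peaks lay at 37, 45 and 38 of them with DMSO and at 39, 39 and 18 with SNDX-5613, where the lowest count was that of the shallow replicate 3. Group means were 40 ± 4.36 and 32 ± 12.1 (SD, n = 3 each), a difference of -8 (exact two-sided permutation test, p = 0.6, with 0.1 as the smallest possible p). Without SNDX-5613 replicate 3 the means were 40 and 39. No site had a peak in 3 of 3 libraries of one group and 0 of 3 of the other, against a background of 1.18% of all sites for loss and 0.147% for gain. Without replicate 3 there was again no such site, against 1.21% and 2.39%. Peaks in DMSO libraries only were found at 13 sites, 9 of which had a peak in a single library, and peaks in SNDX-5613 libraries only at 7 sites, all in a single library. A further 12 sites were called in each of the 5 deeper libraries and missed in SNDX-5613 replicate 3, with levels of 5.30 to 43.5, and 7 of these lay wholly above the limit of 14.2. Over the genome, 44.3% of the sites called in the 5 deeper libraries were missed in it. The 12 sites and the 18 sites called in all libraries were also contained in the consensus sets that the authors deposited for both groups.

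**Figure D1:**
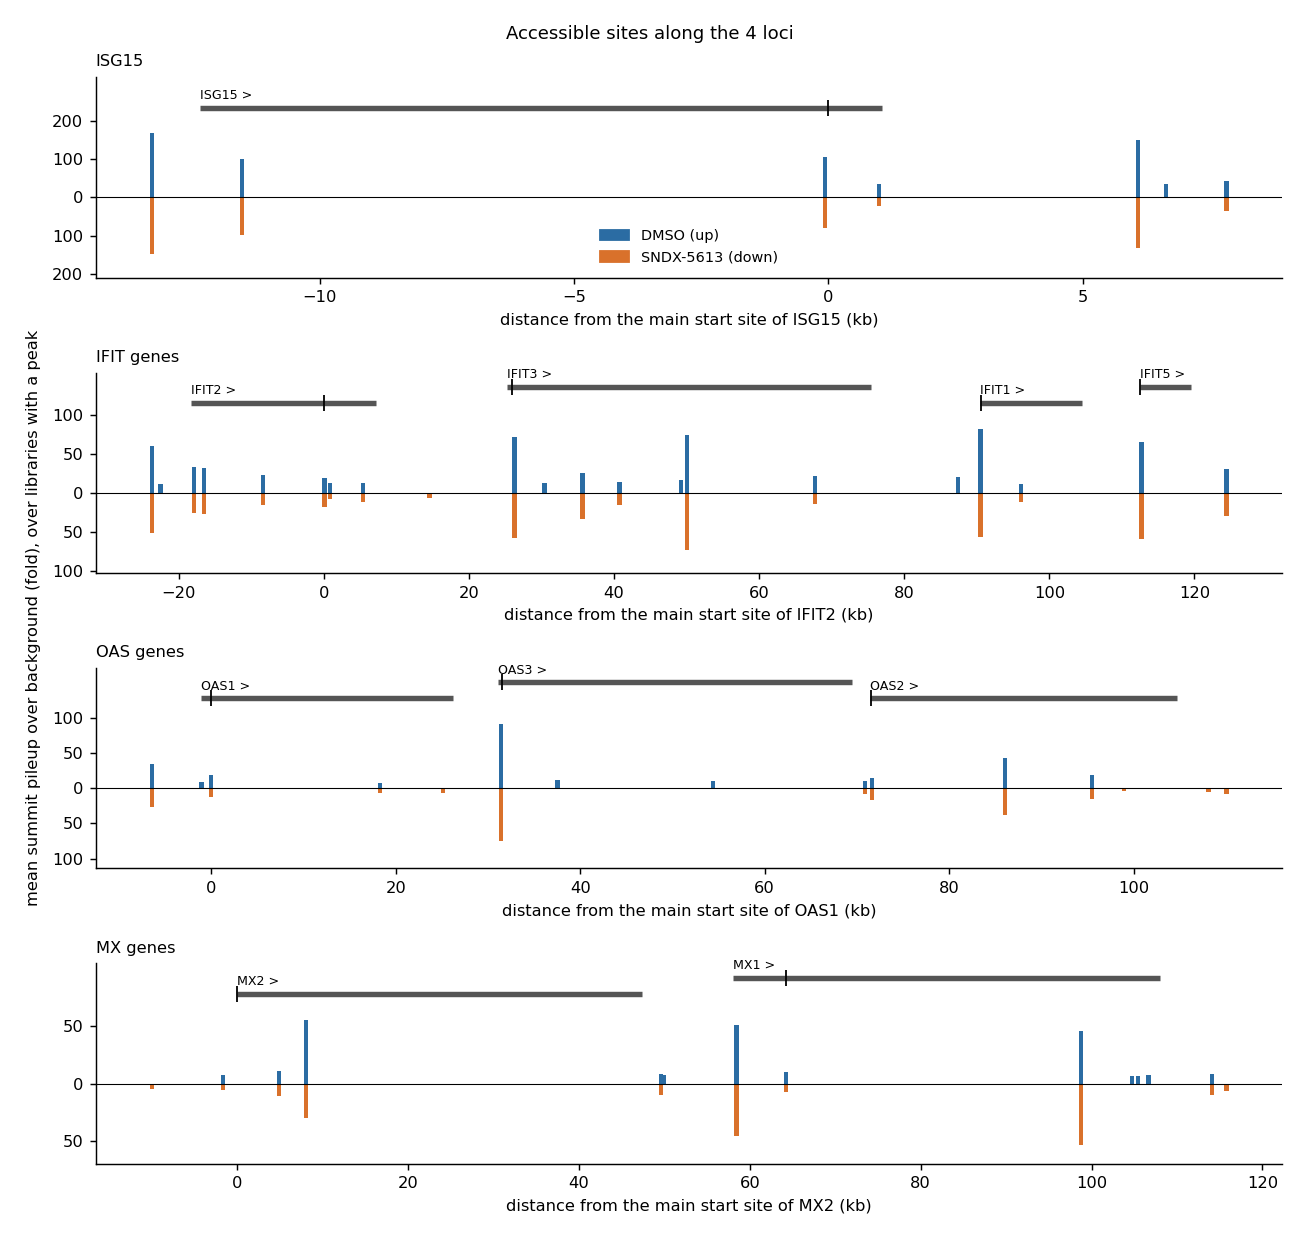
Mean level (pileup at the summit over the background of the library, in fold) at each site of the 4 loci, by distance in kb from the main start site of the first gene, with DMSO upward and SNDX-5613 downward. Means cover the libraries with a peak, 1 weak site upstream of ISG15 without a solved pileup is not drawn, grey lines are genes, all read to the right, and black ticks are main start sites. At MX2 the bar falls from 55.4 to 29.5.

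Of the 58 sites, 18 had a peak in all 6 libraries and could be compared by rank. None of the 18 passed the test (limma on normal scores of the ranks, Benjamini-Hochberg adjustment over 33405 sites), against 0.177% of all sites called higher and 0.018% called lower. With the replicate number as a block, the 59 sites called higher became 3 (0.00898%) and the 6 called lower became 0, and none of the 18 was called. At an unadjusted p under 0.05, 1 of the 18 was higher and 2 were lower, against 9.94% of all sites either way, and with log2 levels in place of ranks 1 was called lower, against 0.737% of all sites called higher and 0.162% called lower on that scale. The percentiles of the 2 groups did not overlap at 2 sites that were lower with SNDX-5613 (MX2 and IFIT1) and at 1 that was higher (IFIT3), where the background was 8.08% lower, 8.54% higher and 16.6% either way. By level, 4 sites were lower without overlap and 0 were higher, against 12.6% and 5.63% of all sites, a scale on which the median of all sites was also shifted by -0.10. The shift, the difference of mean normal scores of SNDX-5613 minus DMSO, was below 0 at 15 of the 18 sites with a median of -0.08, and below 0 at 17182 of all 33405 sites with a median of -0.01. At the 11 sites near start sites the median was -0.13, against -0.02 for all 15235 promoter sites, and at the other 7 it was -0.06, against 0.01 for all other sites.

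**Figure D2:**
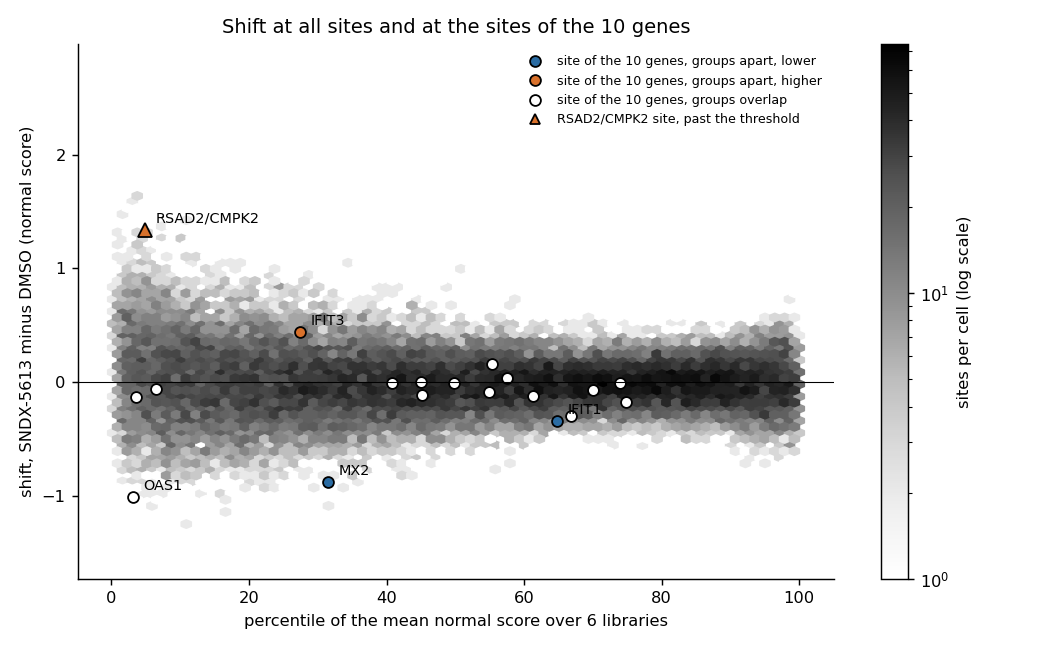
Shift of SNDX-5613 against DMSO (difference of mean normal scores) by the percentile of the mean score over 6 libraries, with all 33405 sites as grey cells on a log scale and the 18 sites of the 10 genes as circles. MX2 and OAS1 lie lowest at -0.88 and -1.02, and the start-site region of RSAD2 and CMPK2 (triangle) lies at 1.34.

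The largest shift without overlap among the 18 sites was at MX2. The main start site of MX2 at position 41362027 of chromosome 21 had no peak within 1 kb in any library. Instead, the accessible site was chr21:41369204-41370568, whose summit lay 8061 bases inside the gene and 3 bases from the start of a shorter annotated transcript. Its level was 56.2, 52.1 and 58.1 with DMSO and 31.0, 29.1 and 28.4 with SNDX-5613. All 3 treated libraries, the shallow one included, were below every DMSO library, and the means of 55.4 ± 3.04 and 29.5 ± 1.30 (SD, n = 3) give a ratio of 0.532. In SNDX-5613 replicate 3 this level rests on a pileup of 6. Percentiles were 45.6, 42.3 and 57.2 against 18.4, 22.5 and 13.1, which gave a shift of -0.88 ± 0.17 (SE). The shift did not pass the test (limma, adjusted p = 0.122). With log2 levels in place of ranks it did, with a difference of -0.91 (adjusted p = 0.0241), or -0.82 (adjusted p = 0.0355) after centring on the median of all sites. Over all settings the adjusted p ranged from 0.0241 to 0.521. Without SNDX-5613 replicate 3 the shift was -0.64 (limma, adjusted p = 0.228), in a fit that also took in the further sites called in the 5 deeper libraries, 59986 in all. On the same 33405 sites without that library it was -0.79 (limma, adjusted p = 0.0944). The other 5 sites of MX2 had peaks in 1 to 3 libraries, and 2 of these 5 are shared with MX1.

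MX1 showed no such difference. The upstream start-site region, chr21:41420058-41420873, lay 5774 bases before the main start site, and its level was 61.2, 53.6 and 37.3 with DMSO and 46.0, 38.4 and 52.1 with SNDX-5613. The groups overlapped, with a shift of 0.00 ± 0.17 (adjusted p = 0.996). At the main start site (chr21:41425976-41426392) the level was low, at 12.04, 9.96 and 8.29 with DMSO and 9.52 and 5.30 in the deeper SNDX-5613 libraries. SNDX-5613 replicate 3 had no peak there, and these levels are below the 14.2 that it could call. An intronic site of MX1 (chr21:41460565-41461007) had levels of 47.1, 49.8 and 40.1 with DMSO and 50.8, 33.1 and 75.8 with SNDX-5613, where replicate 3 was highest and the groups overlapped (shift 0.16 ± 0.21, adjusted p = 0.837).

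**Figure D3:**
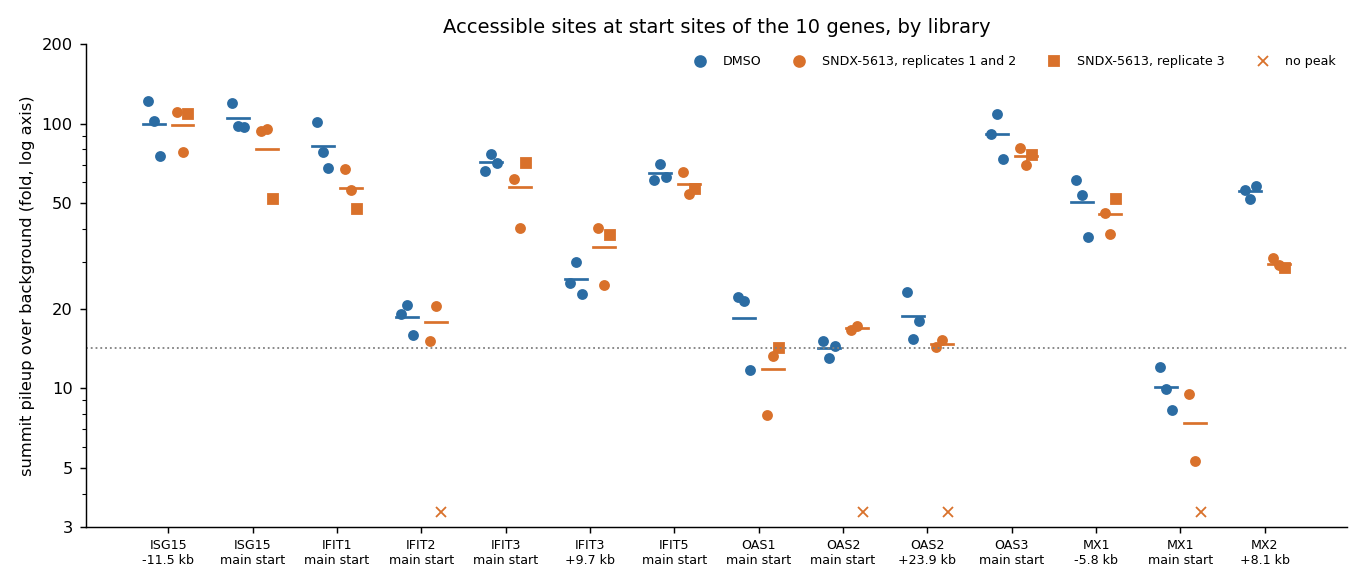
Level (pileup at the summit over background, in fold, on a log axis) in each library at the start-site regions of the 10 genes that had a peak in at least 5 libraries, with horizontal bars for group means. Regions at the promoters of HES4 and of the long noncoding RNA that starts beside the upstream IFIT2 start sites are left out, kb give the distance from the main start site, and the dotted line is the lowest level that could be called in SNDX-5613 replicate 3 (14.2). At MX2 all DMSO libraries are above all SNDX-5613 libraries, while at OAS3 and IFIT5 they overlap.

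Of the IFIT genes, which lie side by side on chromosome 10, IFIT1 had the strongest start-site region with DMSO. At chr10:89391943-89392703, which holds 3 matches to the motif, the level was 101, 78.2 and 67.7 with DMSO and 67.5, 56.3 and 47.4 with SNDX-5613. Every treated library was below every DMSO library, but the lowest DMSO and the highest treated level differed only in the third digit. The means were 82.4 ± 17.2 and 57.0 ± 10.1 (SD, n = 3), a ratio of 0.692. Percentiles of 78.3, 67.2 and 66.5 against 65.5, 62.4 and 46.1 gave a shift of -0.35 ± 0.19 that did not pass (limma, adjusted p = 0.581). Leaving out SNDX-5613 replicate 3, the lowest of the 6, moved the shift to -0.15 (limma, adjusted p = 0.775), or to -0.19 on the same sites (adjusted p = 0.722). A weak intronic site of IFIT1 (chr10:89398000-89398469) had levels of 8.61 to 19.0 in which the groups overlapped.

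IFIT3 had 4 sites in all 6 libraries. At its main start site (chr10:89327707-89328440, 2 motif matches) the level was 66.2, 76.6 and 71.2 with DMSO and 61.9, 40.4 and 71.1 with SNDX-5613, with SNDX-5613 replicate 2 below the rest (shift -0.13 ± 0.20, adjusted p = 0.867). An intronic site, chr10:89337475-89337813, whose summit lay 779 bases from the start of a shorter transcript, went the other way. Its level was 25.1, 29.9 and 22.8 with DMSO and 40.5, 24.5 and 37.9 with SNDX-5613. These levels overlap, while the percentiles of 19.1, 23.4 and 19.5 and of 45.2, 24.2 and 37.2 do not, with a shift of 0.44 ± 0.18 (adjusted p = 0.475). The site held no motif match. A second start-site region of IFIT3 (chr10:89332395-89332521), whose summit lay 15 bases from the nearest motif match, had weak peaks in 2 DMSO libraries, with levels of 14.6 and 11.1, and none with SNDX-5613. The strongest intronic site, chr10:89351711-89352630, overlapped in level, at 60.8 to 85.1 with DMSO and 60.9 to 80.6 with SNDX-5613 (shift 0.03 ± 0.15, adjusted p = 0.957). The last, chr10:89342662-89342947, near an alternative start of LIPA, was weak at 12.4 to 16.7 in the 6 libraries. A further intronic site, chr10:89369271-89369808, was called only in the 5 deeper libraries. Its levels were 20.1, 28.4 and 18.0 with DMSO and 17.5 and 11.9 with SNDX-5613 (limma without replicate 3, shift -0.47, adjusted p = 0.437). In that fit the percentiles of 10.0% of the 30 sites of the 10 genes were lower without overlap and 6.67% higher, against 14.4% and 14.3% of all sites.

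IFIT5 and IFIT2 did not differ beyond their spread. The IFIT5 region, chr10:89414241-89415618, also covers a start site of LIPA, the lysosomal acid lipase gene, which is read the opposite way. Its level was 61.2, 70.5 and 62.9 with DMSO and 65.9, 54.3 and 56.9 with SNDX-5613 (shift -0.01 ± 0.17, adjusted p = 0.987). At the main start site of IFIT2 (chr10:89301315-89302395) the level was 19.1, 20.7 and 15.9 with DMSO and 15.1 and 20.5 in the deeper SNDX-5613 libraries, and replicate 3 had no peak. Upstream start-site regions of IFIT2 at chr10:89283492-89284431 and chr10:89285197-89285672 were stronger, at 23.8 to 43.1, in the same 5 libraries. The strongest site near IFIT2, chr10:89278020-89278568 in its upstream flank, had levels of 48.1, 77.4 and 53.2 with DMSO and 53.2, 58.3 and 42.7 with SNDX-5613, which overlap. IFIT1B, the neighbouring family member, had no start-site peak in any library.

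At ISG15 the main start-site region, chr1:1013208-1014199, contains both overlapping motif matches shown above. Its level was 119, 98.1 and 97.4 with DMSO and 93.7, 95.4 and 52.1 with SNDX-5613. Levels did not overlap, but percentiles did, and the low treated value was that of the shallow replicate 3, which rests on a pileup of 11. The shift was -0.30 ± 0.28 (limma, adjusted p = 0.757) and became 0.04 (adjusted p = 0.951) without that library. Longer annotated transcripts of ISG15 start next to HES4, so that the HES4 promoter (chr1:999864-1000957) counts among its sites. Levels there were 161 to 175 with DMSO and 133 to 160.3 with SNDX-5613, with a shift of -0.18 ± 0.17 (adjusted p = 0.770). A weaker site next to it in an ISG15 intron (chr1:1001760-1002096) had levels of 121, 103 and 75.3 with DMSO and 110.3, 78.1 and 109 with SNDX-5613, which overlap (shift -0.01 ± 0.23). In the flank, the promoter of AGRN (chr1:1019213-1019936) had levels of 129.9 to 163 with DMSO and 121 to 147 with SNDX-5613.

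The OAS genes on chromosome 12 differed widely in accessibility. OAS3 had the strongest start-site region, chr12:112937970-112938758, with levels of 91.3, 109 and 73.3 with DMSO and 81.0, 69.5 and 75.8 with SNDX-5613. The groups overlapped, with percentiles of 65.7 to 77.0 over the 6 libraries (shift -0.07 ± 0.16, adjusted p = 0.903). OAS1 was weak, with levels of 22.1, 21.5 and 11.7 at chr12:112906837-112907198 with DMSO and 7.94, 13.2 and 14.2 with SNDX-5613. DMSO replicate 3 fell within the range of the treated libraries, and the level of SNDX-5613 replicate 3 rests on a pileup of 3, the lowest that could be called in it. The shift of -1.02 ± 0.34 was the most negative of the 18 sites and did not pass (limma, unadjusted p = 0.0152, adjusted p = 0.375). Without SNDX-5613 replicate 3 it was -0.66 (limma, adjusted p = 0.568), or -0.75 on the same sites (adjusted p = 0.383). The region at the main OAS2 start site (chr12:112978138-112978854, 1 motif match) was weak too, at 15.0, 13.0 and 14.5 with DMSO. In the deeper SNDX-5613 libraries its levels were 16.7 and 17.2, both above the DMSO range. SNDX-5613 replicate 3 had no peak there, and its limit of 14.2 lies within these levels. A stronger OAS2 region near a later annotated start, chr12:113002299-113002516, went the other way. Its levels were 23.1, 15.3 and 18.0 with DMSO and 14.3 and 15.2 in the deeper SNDX-5613 libraries, with no peak in replicate 3. Both treated levels were below the DMSO range, 1 of them only in the third digit (limma without replicate 3, shift -0.30, adjusted p = 0.697). An intronic OAS2 site, chr12:112992742-112993254, had levels of 32.5 to 49.0 with DMSO and 26.5 to 47.4 with SNDX-5613, which overlap. In the upstream flank of OAS1, chr12:112900396-112900659 had levels of 38.1, 30.7 and 34.6 with DMSO and no peak in SNDX-5613 replicate 3. The deeper SNDX-5613 libraries had 27.8 and 25.8 there, both below the DMSO range (limma without replicate 3, shift -0.23, adjusted p = 0.658). OASL, the related gene outside the cluster, had levels of 26.1, 30.7 and 11.1 with DMSO and 21.4, 24.5 and 23.7 with SNDX-5613, which overlap (shift 0.05 ± 0.32, adjusted p = 0.970).

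The rest of the pathway was read from the strongest start-site region of each of 51 genes in 4 lists. A start-site peak in all 6 libraries was found for 40 of them, at 38 distinct regions. Of these, 1 region was called higher and 0 lower (limma), against 0.177% and 0.018% of all sites. At an unadjusted p under 0.05, 2 were higher and 3 lower, against 9.94% of all sites either way. The percentiles of the groups did not overlap at 5 regions that were higher and 5 that were lower, or 13.2% each way. Of all sites 8.54% were higher and 8.08% lower without overlap, and of promoter sites 7.502% and 8.14%. The median shift was 0.08. By list, the 8 measured receptors and kinases had a median shift of 0.01, the 5 signal factors 0.17, the 7 sensors and adaptors 0.11 and the 18 regions of other interferon-stimulated genes 0.03.

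The called region was chr2:6865225-6866646, which RSAD2 and CMPK2 share as they are read away from each other. RSAD2 encodes viperin, an antiviral enzyme, and CMPK2 a mitochondrial nucleotide kinase. Its level was 9.03, 8.43 and 9.68 with DMSO and 29.4, 23.8 and 33.2 with SNDX-5613, so that every treated library was above every DMSO library. The DMSO levels lay below the 14.2 that SNDX-5613 replicate 3 could call, and the level in that library rests on a pileup of 7. The region was therefore ranked only because that library was high there, and at the DMSO level it would not have been tested. The shift was 1.34 ± 0.19 (limma, adjusted p = 0.0411). The call was lost on leaving out any of the 6 libraries (1.18 to 1.47, adjusted p = 0.101 to 0.230), although it held without SNDX-5613 replicate 3 when the same sites were kept (1.29, adjusted p = 0.0292). It was also lost when fold enrichment was ranked (0.96, adjusted p = 0.514) and with the replicate number as a block (adjusted p = 0.0906). With log2 levels centred on the median of all sites the call held, with a difference of 1.75 (limma, adjusted p = 0.00295). Over all settings the adjusted p ranged from 0.00096 to 0.514. No motif match lay within 100 bp of its summit.

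Of the signal factors, IRF9 had levels of 115, 116 and 106 with DMSO and 103, 119 and 114 with SNDX-5613. STAT2 had 255, 296 and 264 against 267, 217 and 223. The groups overlapped at both, with shifts of 0.17 ± 0.18 and -0.25 ± 0.25. IRF1, a transcription factor induced by interferons, had percentiles of 91.2, 92.0 and 90.1 with DMSO and 97.2, 94.0 and 96.2 with SNDX-5613, which do not overlap (shift 0.40 ± 0.16, adjusted p = 0.457). Its levels of 188, 200 and 164 with DMSO and 211, 160 and 213 with SNDX-5613 do overlap. IFNAR1, a chain of the type I interferon receptor, had levels of 194, 188 and 160.3 with DMSO and 159.5, 129 and 142 with SNDX-5613. Its percentiles of 97.3, 94.8 and 93.7 lay above those of 92.5, 89.9 and 86.9 (shift -0.41 ± 0.17, adjusted p = 0.474).

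Further regions whose percentiles did not overlap were weaker or moved less, and none passed the test. Their levels did overlap at BST2, IFNGR2, IFITM3, JAK2 and HERC6, and did not at GBP1 and IFI35. Lower with SNDX-5613 were GBP1, an interferon-induced GTPase (percentiles 17.5, 27.6 and 17.2 against 14.1, 9.80 and 1.33, shift -0.70 ± 0.28), and BST2, the tetherin gene (25.5, 11.0 and 12.3 against 9.38, 1.03 and 8.45, shift -0.66 ± 0.28). In SNDX-5613 replicate 3 the GBP1 value rests on a pileup of 3, the lowest that could be called in it, and the BST2 value on a pileup of 5. Without SNDX-5613 replicate 3 the GBP1 shift was -0.28, or -0.36 on the same sites. The BST2 shift was then -0.72, or -0.80 on the same sites. IFNGR2, a chain of the interferon gamma receptor, had a shift of -0.36 ± 0.19 and IFI35 one of -0.30 ± 0.16. IFITM3, which blocks the entry of viruses, was higher with 0.22 ± 0.15. JAK2 and HERC6, which the naming rule leaves out, were higher with 0.21 ± 0.16 and 0.15 ± 0.14. IFI44, named after its values were seen, had levels of 38.1, 49.8 and 44.2 with DMSO and 13.5 and 21.9 in the deeper SNDX-5613 libraries, with no peak in replicate 3. Both treated levels were below every DMSO level, and the fit without replicate 3 gave a shift of -0.90 (limma, adjusted p = 0.324). IFI27, also named after its values were seen, had weak peaks with levels of 9.03, 4.60 and 8.98 with DMSO and none with SNDX-5613. No start-site peak was found for IFNLR1 or TRIM22.

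**Figure D4:**
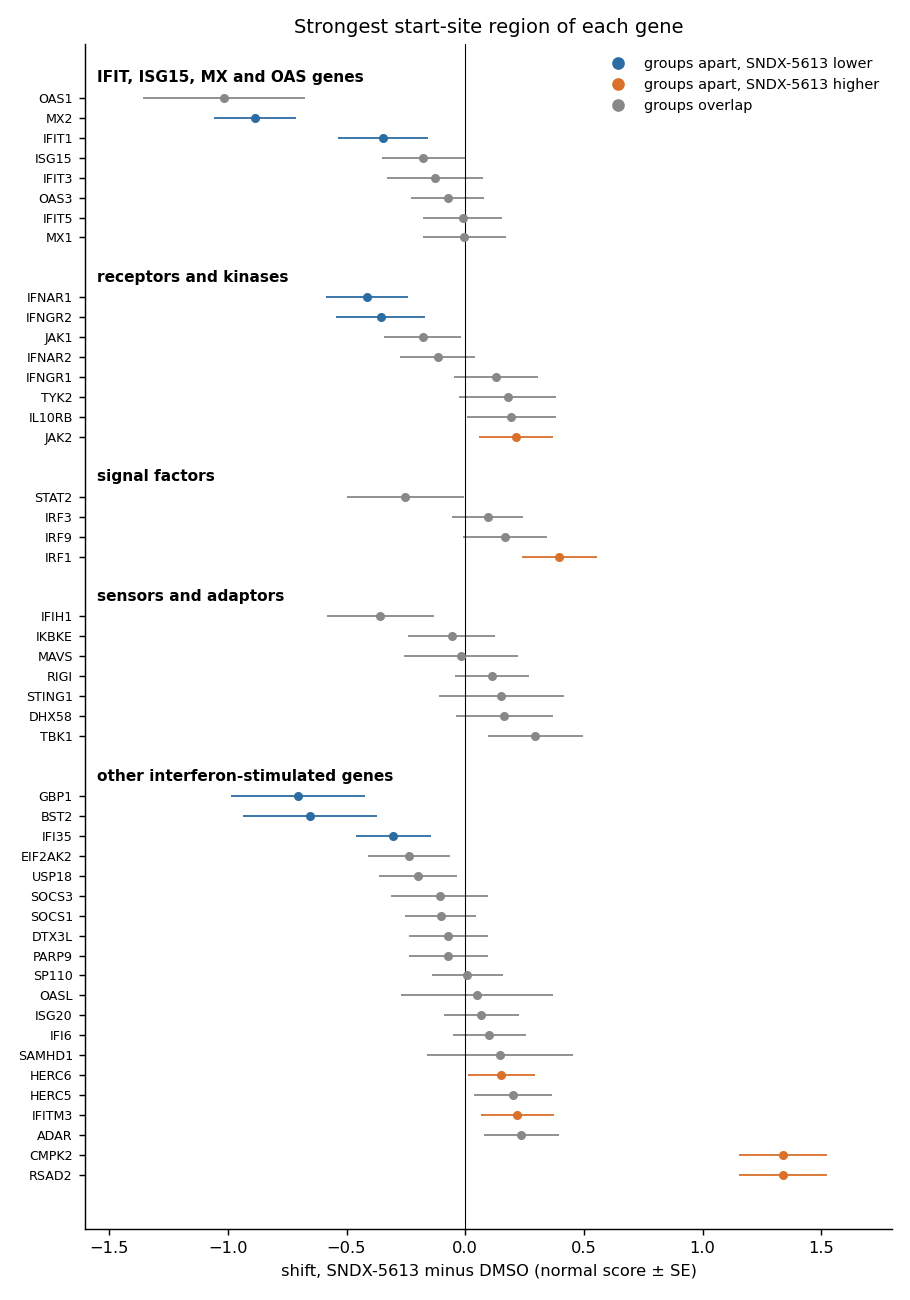
Shift of SNDX-5613 against DMSO (normal score ± SE from limma, n = 3 against 3) at the strongest start-site region of the genes reported here with a peak in all 6 libraries, which for ISG15 is the HES4 promoter. RSAD2 and CMPK2 share a region at 1.34, and OAS1 and MX2 lie lowest at -1.02 and -0.88, followed by GBP1 and BST2 at -0.70 and -0.66.

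Beyond these genes, sites with the motif within 100 bp of the summit were compared with all sites. They numbered 660 of the 33405 sites in all 6 libraries (1.98%), and 3 of the 18 sites above were among them, at ISG15, IFIT1 and OAS3. The groups did not overlap and SNDX-5613 was lower at 83 of the 660 sites (12.6%), and higher at 49 (7.42%), against 8.08% and 8.54% of all sites. The shares stood further apart away from promoters. Of 431 motif sites there, 63 were lower without overlap (14.6%) and 34 were higher (7.89%), against 8.03% and 9.42% of all 18170 sites away from promoters. Of 229 promoter sites with the motif, 20 were lower (8.73%) and 15 higher (6.55%), against 8.14% and 7.502% of all promoter sites. Without SNDX-5613 replicate 3, where 2 treated libraries are compared with 3, the shares away from promoters were 24.8% lower and 11.4% higher with the motif, and 14.9% and 15.4% for all such sites. With centred log2 levels the shares there were 12.5% lower and 11.4% higher with the motif, against 7.66% and 14.3%. Within 50 bp of the summit the motif was found at 269 sites, and 9.67% were lower and 10.0% higher. When fold enrichment was ranked, 10.0% of the 660 sites were lower and 6.52% higher, against 6.83% and 7.92% of all sites. Median shifts were -0.03 for the 660 sites and -0.04 for those away from promoters. The motif sites were weaker than the sites they were set against. Their median percentile with DMSO was 39.2, against 49.6 for all sites. Away from promoters it was 31.0 against 34.9, and at promoters 65.8 against 73.5. Whether this difference bears on the shares was not tested.

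**Figure D5:**
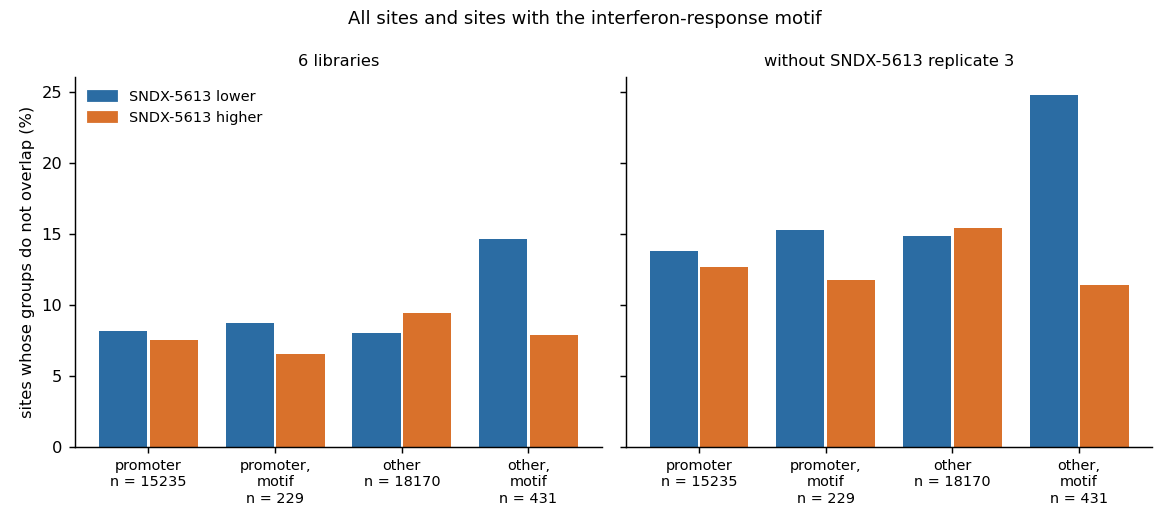
Share of sites (%) whose groups do not overlap, lower (blue) or higher (orange) with SNDX-5613, at promoter and other sites, for all sites of the class and for those with the interferon-response motif within 100 bp of the summit. The left panel uses all 6 libraries and the right panel leaves out SNDX-5613 replicate 3, and at other sites the blue bar rises from 8.03% to 14.6% with the motif on the left.

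Among the 660 motif sites, 2 were called (limma) and both were higher with SNDX-5613, where the background over all sites was 0.177% higher and 0.018% lower. With the replicate number as a block 1 was called. The first was the promoter of HOXC13, a homeobox gene (chr12:53938406-53938852), with levels of 40.1, 30.7 and 30.4 with DMSO and 92.1, 70.9 and 109 with SNDX-5613, which do not overlap (shift 1.21 ± 0.17, adjusted p = 0.0427). With the replicate number as a block its adjusted p was 0.102. The other lies among annotated copies of ribosomal RNA genes on chromosome 21, where the copy of origin of a read is uncertain (chr21:8234036-8234830). Its levels were 71.2, 56.7 and 75.3 with DMSO and 280.2, 272 and 369.7 with SNDX-5613 (shift 2.76 ± 0.17, adjusted p = 0.00200). No motif site was called lower, while 33 were higher and 56 lower at an unadjusted p under 0.05, against 1879 and 1443 of all 33405 sites.

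The start-site region with the highest mean percentile was that of the long ISG15 transcripts at the HES4 promoter, and the nearest protein-coding genes in normal scores over the 6 libraries were BLOC1S2, AUH and GMEB2 (distances of 0.134, 0.163 and 0.165). For OAS3, added after its values were seen because its region holds no promoter of another gene, they were DHDH, ADH5 and PKP3 (0.143, 0.165 and 0.166).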

How the data were processed

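The 6 ATAC-seq libraries, 3 from HLF cultures given DMSO and 3 given SNDX-5613, were grouped by their labels. Per the labels' processing notes, the authors used Trim Galore 0.6.7, Bowtie2 2.3.4.1, Picard 2.20.0, deepTools 3.5.4, SAMtools and MACS2 with hg38. Whether reads were shifted for the Tn5 cut, duplicates removed or a blacklist applied is not given in the sources used here. The study's own model of read counts was not fitted here.

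Each deposited list, called per library, gives for each summit the authors' fold enrichment, a ratio of pileup to local background, and the authors' -log10 p and -log10 q. The deposited consensus sets carry a combined score, of which the regions alone were used. Fold enrichment and p were solved for a whole-number pileup (99.8% to 100% of regions), and the most frequent background of a library was its depth measure. Regions on chromosomes 1 to 22, X and Y were joined into a site where they shared 1 bp or more, and the strongest summit was kept. Ranks of -log10 p over the 33405 sites in all 6 libraries were turned into normal scores and fitted with limma 3.58.1 (R 4.3.3), with a threshold of 0.05 on the adjusted p. In the study's methods a replicate is a dish divided between the arms, so the replicate number, taken from the labels, was also fitted as a block. Deviations of same-numbered libraries from their group means had correlations of 0.0164, 0.000532 and 0.00698. Single values were compared by exact permutation tests. On simulated data for this comparison, with 33401 sites in the fit, 84 of 100 sites changed 4-fold and 18 of 100 changed 2-fold were called. The extra spread between simulated libraries was assumed and equal for all. Low draws were raised to the lowest pileup called, so no site lost its peak. These rates need not hold for the real libraries.

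The 10 genes and all gene lists were chosen with earlier results of these data known. The genes named were the 10 genes with IFIT1B and OASL, STAT2, IRF9 and IFNAR1, and of the other list genes up to 8 past the threshold or without overlap, by size of the shift. Some genes of the lists count in the totals and are not reported here by name. Likeness was measured by Euclidean distance. Python 3.11.15, numpy 2.4.6, pandas 2.3.3 and scipy 1.17.1 were used.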

Additional observations from a re-analysis of the deposited data

How the results depend on the processing

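None of the 18 sites was called under any setting that kept ranks of -log10 p or of fold, the 6 fits that leave out a library included. With log2 levels 1 was called lower, MX2, both as they stand (-0.91) and centred on the median of all sites (-0.82, chosen after seeing the data), and without centring 0% were higher and 22.2% lower without overlap, against 5.63% and 12.6% of all sites. By rank, the shares at the sites within 1 kb of a start site were 9.09% and 18.2%. Leaving out 1 library gave 5.56% to 11.1% higher and 10.0% to 16.7% lower, where the shares of all sites were 12.3% to 14.5% and 12.2% to 14.4%, a median shift of -0.11 to 0.0093, and a difference in the number of sites of -11.5 to -1. Over all sites, the numbers called higher and lower were 198 and 58 with sample weights, 246 and 54 with log2 levels, 496 and 67 with centred log2 levels, and 0 and 0 when fold enrichment was ranked. With -log10 q of at least 3, 3 were called lower, and with equal numbers of regions 13 were called higher. Leaving out 1 library gave 0 to 3 higher and 0 lower on the sites that each fit could use, but 128 and 35 without SNDX-5613 replicate 3 on the same sites, also chosen after seeing the data. With the replicate number as a block 3 sites were called higher and 0 lower, 1 motif site was called higher, and the shift of 1.34 for RSAD2 and CMPK2 had an adjusted p of 0.0906 (limma). The site at HOXC13 is the motif site whose call was lost, and the block changed no other call at the sites named here. At motif sites the median shift was -0.054 with sample weights, -0.083 by fold, -0.12 with log2 levels, -0.054 with equal numbers of regions, and -0.0071 within 50 bp. Motif sites called higher numbered 0 by fold, 5 with log2 levels, 10 with centred log2 levels, 1 with equal numbers, 1 within 50 bp, 0 with a longer motif, 1 at promoters and 1 elsewhere, and 3 were called lower with sample weights, with log2 levels and with centred log2 levels. Without 1 library, 0 to 1 were called higher and 0 lower, the shares without overlap were 9.98% to 12.8% higher and 15.9% to 21.6% lower beside the shares of all sites above, and the median shift was -0.051 to -0.013. Without SNDX-5613 replicate 3 on the same sites the shares were 11.5% and 21.5%, against 14.2% and 14.4% of all sites, with 2 called higher and 2 lower.

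Shifts near 0 changed sign. By fold they were 0.10 and 0.30 at the ISG15 sites starting at 1001760 and 1019213, -0.031 at IFIT3 (89351711), 0.12 at IFIT5, 0.0050 at OAS3, 0.014 at the upstream MX1 start, -0.21 in the MX1 intron and 0.24 at STAT2. With log2 levels they were 0.00050 at ISG15 (1001760), 0.18 at IFIT3 (89342662), -0.0010 at IFIT3 (89351711), 0.0089 in the IFIT1 intron and -0.0069 at IRF9, and centred 0.094, 0.27 and 0.10 at ISG15 (1001760), IFIT3 (89342662) and the IFIT1 intron. Sample weights gave 0.11 and -0.0094 at the same IFIT3 sites, 0.034 at IFIT5 and -0.0046 in the MX1 intron, and equal numbers of regions gave 0.037 at ISG15 (1001760), 0.0059 at IFIT5 and 0.028 at the upstream MX1 start. Leaving out 1 library gave ranges of -0.20 to 0.16, -0.53 to 0.042 and -0.056 to 0.095 at the ISG15 sites starting at 1001760, 1013208 and 1019213, -0.24 to 0.074 at IFIT2 (89278020), -0.23 to 0.058, -0.24 to 0.30 and -0.030 to 0.10 at IFIT3 (89327707, 89342662 and 89351711), -0.30 to 0.018 in the IFIT1 intron, -0.10 to 0.082 at IFIT5, -0.15 to 0.013 at OAS3, -0.20 to 0.0022 at OAS2 (112992742), and -0.14 to 0.11 and -0.038 to 0.36 at MX1. On the same sites without SNDX-5613 replicate 3, the shift was 0.052 at ISG15 (1013208), 0.083 at IFIT2, 0.22 at IFIT3 (89342662), -0.00079 at IFIT3 (89351711), 0.090 at IFIT5 and -0.060 in the MX1 intron. The cause of these changes was not tested. With -log10 q of at least 3 and with equal numbers of regions, BST2, GBP1, IFNGR2, OAS1, the IFIT1 intron and IFIT3 (89342662) gave no value, and with equal numbers neither did RSAD2 and CMPK2, since not every library kept a peak there. SNDX-5613 replicate 3 limits what can be seen at weak sites, since levels under 14.2 could not be called in it.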
